A study of Mus musculus with 8 samples.

Results

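The genes described are 10 of the 42256 genes in a count table of mouse kidney RNA, those of the amino acid branch of the ATF4 stress response: Atf4, Atf5, Ddit3, Trib3, Chac1, Asns, Psat1, Phgdh, Mthfd2 and Fgf21. They were taken by symbol, as a list of ATF4 and its known targets, and all 10 had a row in the table. The list was chosen with earlier results of these data known. The kidneys came from 4 mice labelled CDH11-/- and 4 labelled CDH11+/+, all adult males on a mixed strain background (129S1/Sv x C57BL/6). Every mouse of both labels had received 3 mg/kg aristolochic acid, a plant toxin that injures the proximal tubule, on each of 5 days, and was killed 2 weeks after the last dose. No uninjured kidney was analysed here, so no comparison below says whether the toxin itself moved a gene. The labels name no allele, promoter or Cre for the CDH11-/- genotype, and where the title of the series differs from them on the injury (Unx/AngII), the labels were followed.

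ATF4 is a bZIP transcription factor whose mRNA is translated preferentially when kinases of the integrated stress response phosphorylate eIF2 alpha, as happens when amino acids run short, haem is lacking, viral RNA is sensed or the endoplasmic reticulum is loaded with misfolded protein. ATF4 then raises genes for amino acid synthesis and uptake, tRNA charging and one-carbon metabolism, together with regulators that adapt the cell or turn the response off. Because ATF4 is controlled to a large degree at translation, the level of its mRNA and the levels of its target mRNAs are separate measurements.

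Libraries labelled CDH11-/- held 12966177 to 18539479 counts, and libraries labelled CDH11+/+ held 10675309 to 13885009. Their totals did not separate beyond the spread (two-sided exact permutation test, p = 0.0857; 4 against 4 can give no p below 0.0286). Levels are in CPM, the count relative to a common library size set by the TMM method, and all differences are log2 fold changes of CDH11-/- over CDH11+/+ from an edgeR quasi-likelihood fit over 15852 genes. The labels speak of separate mice, so the error is the spread between mice. Cdh11, the gene named by the labels, was read at 89.7 to 117.0 CPM in the libraries labelled CDH11-/-, against 58.0 to 75.5 CPM in those labelled CDH11+/+ (log2 fold change 0.69 ± 0.11 SE, edgeR adjusted p = 0.0243; with the authors' factors as offsets 0.24 and adjusted p = 0.544). The targeted mRNA therefore went against the label, and without knowing which part of the gene was altered its count does not check the genotype. For that reason the groups are called libraries by label throughout.

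ATF4 binds, as a dimer with C/EBP proteins and other bZIP partners, to a composite element whose core was searched here as TGATGNAA on both strands, in windows running from 250 bases before to 50 bases after each start site in RefSeq's GRCm38.p6 annotation. Of the 10 genes, 4 held a match, 4.51% of all 27025 genes with a window did, and a match is a description of letters and not of binding. The 4 stretches are shown because they hold the letters that ATF4 dimers read. Each 60-base stretch is on the strand of its gene, with the match in capitals, which reads backwards and complemented where the match lies on the other strand (Trib3, Chac1 and Fgf21).
Asns, chr6:7693199-7693258, minus strand: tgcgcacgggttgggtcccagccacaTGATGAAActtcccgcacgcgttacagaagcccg
Trib3, chr2:152344013-152344072, minus strand: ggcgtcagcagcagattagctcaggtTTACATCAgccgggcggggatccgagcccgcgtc
Chac1, chr2:119351023-119351082, plus strand: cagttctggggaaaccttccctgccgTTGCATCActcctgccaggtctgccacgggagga
Fgf21, chr7:45615596-45615655, minus strand: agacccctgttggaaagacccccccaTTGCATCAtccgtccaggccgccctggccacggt
The match begins 193 bases upstream of the RefSeq start in Chac1, 139 bases upstream in Fgf21 and 23 bases upstream in Asns. In Trib3 it begins at base 15 of the RefSeq transcript. The gene coordinates given below are those of GENCODE, whose starts of Asns (7693254) and Trib3 (152344032) differ from those of RefSeq. By the GENCODE coordinates the Asns match lies inside the gene and the Trib3 match upstream of it. Chac1 and Fgf21 hold the same 8 letters. The windows of Atf4, Atf5, Ddit3, Psat1, Phgdh and Mthfd2 held no match, which says only that these letters are not within that window. Those of Psat1 (15925010 to 15925309 and 15924573 to 15924872) and Mthfd2 (83317555 to 83317854) lie inside the GENCODE genes. The GENCODE starts of Psat1 (15947337) and Mthfd2 (83325908) lie outside these windows and were not searched.

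The tested members did not separate the kidneys by label, and neither did most genes tested. The filter on low counts kept 9 of the 10 genes, and Fgf21 did not pass it. None of the 9 was called at an adjusted p under 0.05 by the edgeR quasi-likelihood test, where 0.719% of the 15852 genes tested were called (0.372% higher and 0.347% lower in the libraries labelled CDH11-/-). The count of members was 0 at an unadjusted p under 0.05 as well, a level passed by 14.1% of all genes, and it was also 0 by DESeq2 and by limma-voom. In 0 of the 9 did the 4 CDH11-/- libraries lie wholly above or below the 4 CDH11+/+ libraries, a separation seen in 7.32% of all genes tested. At these shares, a count of 0 among 9 genes does not set the members apart from other genes. Of the 9 differences, 3 were positive and 6 negative. Their median was -0.03, beside -0.01 for all genes, and their median size was 0.11, beside 0.11 for all genes. The 95% interval of every one of the 9 lay within a 2-fold difference either way, and that of 6 within a 1.5-fold difference.

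**Figure D1:**
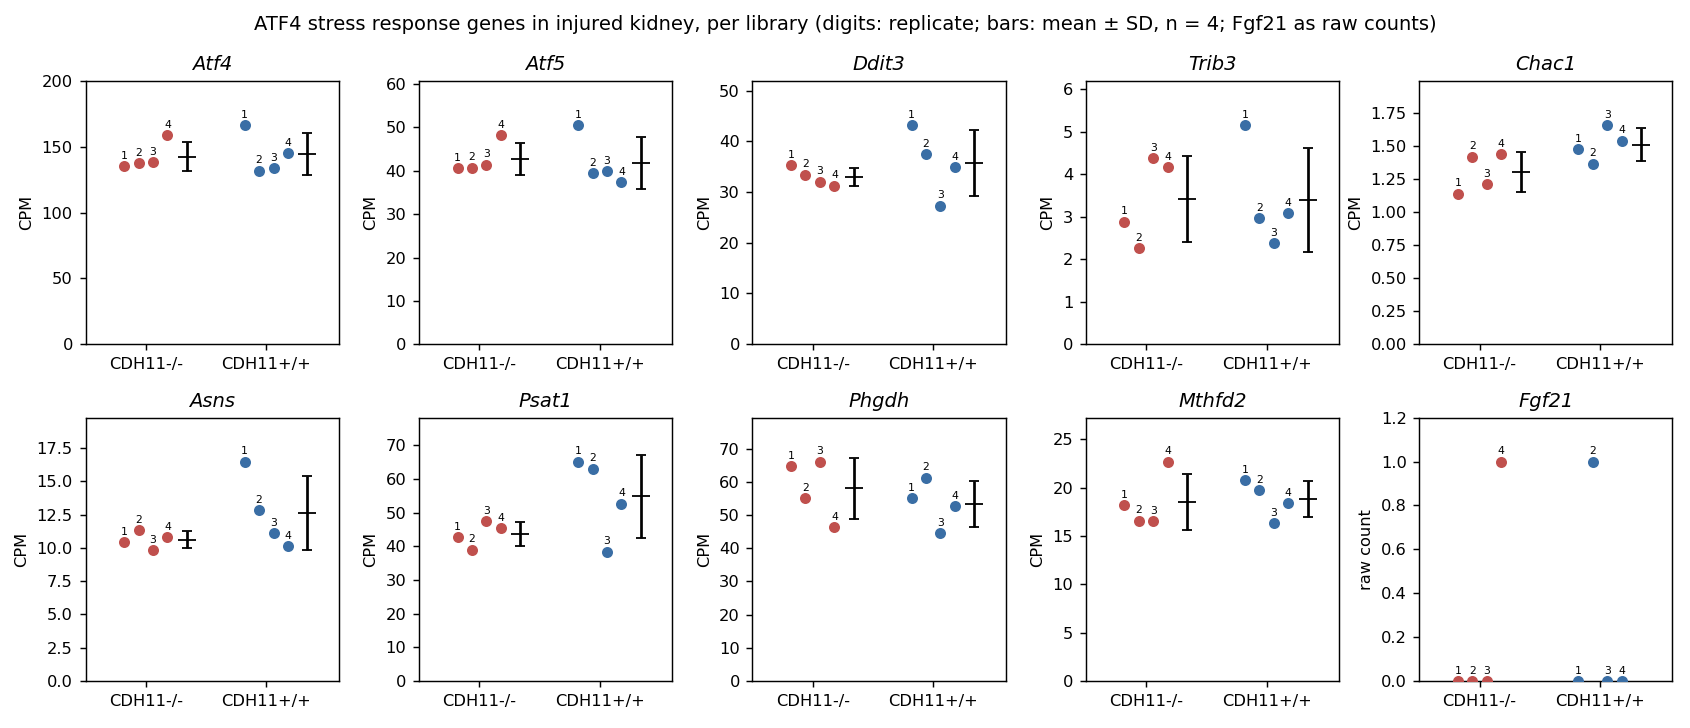
Level of each of the 10 genes in the 8 libraries, in CPM (Fgf21 as raw counts), with CDH11-/- in red on the left and CDH11+/+ in blue on the right of each panel; digits are replicates and bars are the mean ± SD (n = 4), not drawn for Fgf21. The points of the labels overlap in every panel, and CDH11+/+ replicate 1 is the highest point for 6 genes.

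Of the 3 transcription factors, Atf4 was read at the highest level. Atf4 (GRCm38 chromosome 15, 80255184 to 80257541, plus strand) was more abundant in CPM than 92.1% of the tested genes. It was measured at 135.1, 137.9, 138.3 and 158.8 CPM in replicates 1 to 4 labelled CDH11-/-, and at 166.7, 131.9, 133.8 and 145.2 CPM in replicates 1 to 4 labelled CDH11+/+. In each label 1 library stood above the rest, CDH11-/- replicate 4 and CDH11+/+ replicate 1. The other CDH11-/- libraries lay close together (135.1 to 138.3 CPM), and the other CDH11+/+ libraries spread more widely (131.9 to 145.2 CPM). Atf4 averaged 142.5 ± 10.9 CPM under CDH11-/- and 144.4 ± 16.0 CPM under CDH11+/+ (SD, n = 4 each). Between labels the log2 fold change was -0.02 ± 0.08 (SE), with a 95% interval of -0.20 to 0.17 and an edgeR adjusted p of 0.948. At this precision a change of Atf4 mRNA beyond a factor of 0.868 downwards or 1.12 upwards lies outside the interval.

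Atf5 encodes a related bZIP factor whose mRNA is translated under the same eIF2 alpha control and which regulates the mitochondrial stress response. The gene lies on chromosome 7 (44812256 to 44816658, minus strand). Its libraries read 40.7, 40.7, 41.4 and 48.2 CPM under CDH11-/-, against 50.6, 39.4, 39.9 and 37.4 CPM under CDH11+/+. The pair of libraries that was highest for Atf4 was also highest for Atf5. The difference was 0.03 ± 0.10 (interval -0.19 to 0.25, edgeR adjusted p = 0.916). Atf5 shares 82 exon bases with Il4i1 on the opposite strand, and the sources used here do not say whether reads were counted by strand.

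Ddit3, which encodes CHOP, the bZIP factor linked to cell death under lasting stress, lies on chromosome 10 (127290774 to 127296288, plus strand). Its libraries read 35.3, 33.4, 32.1 and 31.2 CPM under CDH11-/- and 43.2, 37.4, 27.3 and 34.9 CPM under CDH11+/+. The CDH11-/- libraries lay inside the range of the CDH11+/+ libraries, which spread more widely. Its log2 fold change was -0.11 ± 0.12 (interval -0.37 to 0.15, edgeR adjusted p = 0.725). Ddit3 shares 68 exon bases with Mars and 13 with Gm4189, both on the opposite strand, so part of its count is uncertain. It also shares 105 with another annotated Ddit3 model, which has no row in the count table.

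Trib3 and Chac1 act downstream of ATF4 and CHOP. Trib3 encodes a pseudokinase that binds ATF4 and CHOP and restrains AKT, and Chac1 an enzyme that degrades glutathione. Both were scarce, with 30 to 83 counts per library for Trib3 and 16 to 23 for Chac1, so counting error weighed most on this pair. Trib3 (chromosome 2, 152337422 to 152344032, minus strand) read 2.88, 2.26, 4.38 and 4.16 CPM under CDH11-/-, and 5.16, 2.96, 2.37 and 3.08 CPM under CDH11+/+. It varied the most of the tested members, with a coefficient of variation of 29.7% within CDH11-/- and 35.9% within CDH11+/+. Its difference of 0.02 ± 0.29 had the widest interval of the 9, -0.61 to 0.65 (edgeR adjusted p = 0.983).

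Chac1 (chromosome 2, 119351229 to 119354381, plus strand) read 1.14, 1.42, 1.21 and 1.44 CPM under CDH11-/-, and 1.47, 1.37, 1.66 and 1.54 CPM under CDH11+/+. CDH11-/- replicates 2 and 4 lay above the lowest CDH11+/+ library, so the ranges overlapped. Chac1 differed by -0.22 ± 0.24 on the log2 scale (interval -0.74 to 0.31, edgeR adjusted p = 0.740).

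The enzymes of amino acid synthesis held the largest differences of the 9, Psat1 and then Asns, neither of them past the threshold. Psat1, the aminotransferase of the second step of serine synthesis, lies on chromosome 19 (15904678 to 15947337, minus strand). It read 42.7, 39.0, 47.5 and 45.3 CPM under CDH11-/-, and 65.2, 63.1, 38.4 and 52.7 CPM under CDH11+/+. Of the CDH11+/+ libraries 3 lay above every CDH11-/- library, and CDH11+/+ replicate 3 lay below all of them. Psat1 averaged 43.6 ± 3.64 CPM under CDH11-/- and 54.8 ± 12.2 CPM under CDH11+/+ (SD, n = 4 each). This was a log2 fold change of -0.33 ± 0.15, with an interval of -0.67 to 0.01, an unadjusted p of 0.0582 and an edgeR adjusted p of 0.371. Without CDH11+/+ replicate 3 it was -0.46 with an edgeR adjusted p of 0.0737, the lowest adjusted p of any member under any alternative. It was -0.22 (0.443) without CDH11+/+ replicate 1, -0.25 (0.694) without CDH11+/+ replicate 2 and -0.19 (0.554) without both CDH11+/+ replicate 1 and CDH11-/- replicate 2, so its size rested on which CDH11+/+ libraries were kept.

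Asns, which makes asparagine from aspartate and is a standard readout of amino acid shortage, lies on chromosome 6 (7675169 to 7693254, minus strand). Its libraries read 10.5, 11.4, 9.86 and 10.8 CPM under CDH11-/-, and 16.5, 12.8, 11.1 and 10.2 CPM under CDH11+/+. The CDH11-/- libraries were close together, and CDH11+/+ replicates 1 and 2 lay above them. The log2 fold change was -0.25 ± 0.15 (interval -0.57 to 0.08, edgeR adjusted p = 0.484), and without CDH11+/+ replicate 1 it was -0.09 (edgeR adjusted p = 0.736). Asns was also the member on which the deposited tables differed most. The authors' normalized counts divide each count by a factor of its own gene and library. Relative to the median factor of the library, those of Asns were 0.700, 1.18, 1.17 and 1.17 under CDH11-/- and 0.920, 0.895, 1.18 and 0.898 under CDH11+/+, while those of the other tested members lay between 0.925 and 1.11. The authors' normalized counts of Asns were 208.0, 133.5, 118.3 and 127.2 under CDH11-/- and 248.2, 197.6, 129.6 and 155.6 under CDH11+/+. On that scale CDH11-/- replicate 1 moved above its 3 fellows. The fold change from those values was -0.31 on the log2(value + 1) scale (limma adjusted p = 0.625).

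Phgdh, the first enzyme of serine synthesis from glycolysis, lies on chromosome 3 (98313170 to 98339990, minus strand). It read 64.8, 55.2, 66.2 and 46.4 CPM under CDH11-/-, and 55.1, 61.3, 44.6 and 52.8 CPM under CDH11+/+. The libraries interleaved, and the difference of 0.12 ± 0.13 had an interval of -0.16 to 0.40 (edgeR adjusted p = 0.716). Leaving out 1 library gave values from 0.045 (without CDH11+/+ replicate 3) to 0.23 (without CDH11-/- replicate 4), none of them past the threshold. Phgdh and Psat1 act in succession in the same pathway, yet their differences had opposite signs, neither of them past the threshold; the difference between them was not tested.

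Mthfd2, the mitochondrial one-carbon enzyme that uses the folate units released from serine, lies on chromosome 6 (83305691 to 83325908, minus strand). It read 18.2, 16.6, 16.5 and 22.7 CPM under CDH11-/-, and 20.7, 19.7, 16.4 and 18.4 CPM under CDH11+/+. The highest library was CDH11-/- replicate 4 and the lowest CDH11+/+ replicate 3. The log2 fold change was -0.03 ± 0.12 (interval -0.29 to 0.24, edgeR adjusted p = 0.947).

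Fgf21, the hormone through which ATF4 signals to other organs, was almost unread in these kidneys. Its gene lies on chromosome 7 (45613886 to 45615490, minus strand). The table held 0, 0, 0 and 1 counts in replicates 1 to 4 labelled CDH11-/-, and 0, 1, 0 and 0 counts in those labelled CDH11+/+. A count of 0 allows up to 3 counts, which is 0.158 to 0.201 CPM in the 3 CDH11-/- libraries at 0 and 0.231 to 0.276 CPM in the 3 CDH11+/+ libraries at 0. These limits cover counting error only. Both labels lay under the floor, and no fold was formed.

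**Figure D2:**
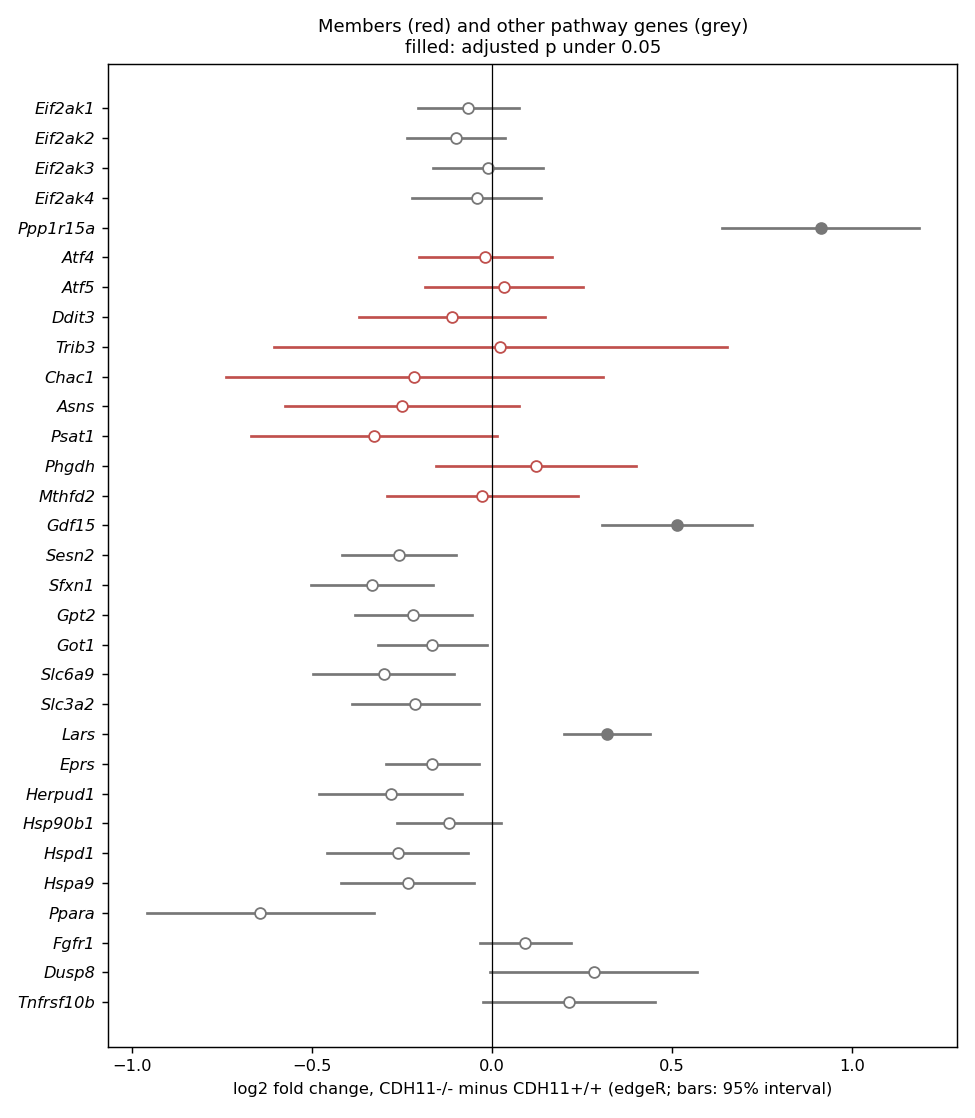
Log2 fold change of CDH11-/- over CDH11+/+ for the 9 tested members (red) and the other named pathway genes (grey), with the 95% interval of each gene, not adjusted for the number of genes, as a bar; filled points passed the adjusted threshold. Every interval of a member includes 0, from the narrow one of Atf4 (-0.20 to 0.17) to the wide ones of Trib3 and Chac1.

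Per kilobase of exon, a scale that allows genes to be ordered, Atf4 led with a mean of 60.8 CPM per kb over the 8 libraries. Phgdh (22.4), Atf5 (21.2) and Ddit3 (20.1 CPM per kb) followed, and the ranges of neighbours in that order overlapped. Psat1, at 11.6 CPM per kb, stood apart from Ddit3 above and Mthfd2 below. Mthfd2 (5.35) and Asns (4.26 CPM per kb) overlapped in range, and Trib3 (1.603), Chac1 (0.859) and Fgf21 (0.0199 CPM per kb) each lay below the one before.

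Mice of the same label differed among themselves, and both the highest and the lowest libraries were labelled CDH11+/+. CDH11+/+ replicate 1 was the highest of the 8 libraries for 6 of the 9 tested members (Atf4, Atf5, Ddit3, Trib3, Asns and Psat1) and above the member's own mean for 8 of 9. The median of its deviations from the members' means was 0.26 on the log2 CPM scale. At the other end, CDH11+/+ replicate 3 was the lowest for 4 of 9 and above the mean for 1, with a median deviation of -0.18. The medians of the 4 CDH11-/- libraries lay between -0.08 and 0.04. The SD of CPM was larger among the CDH11+/+ libraries for 6 of the 9 members. With 4 libraries a label, and with counts of members that share the same libraries, this is a description and the difference in spread was not tested.

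**Figure D3:**
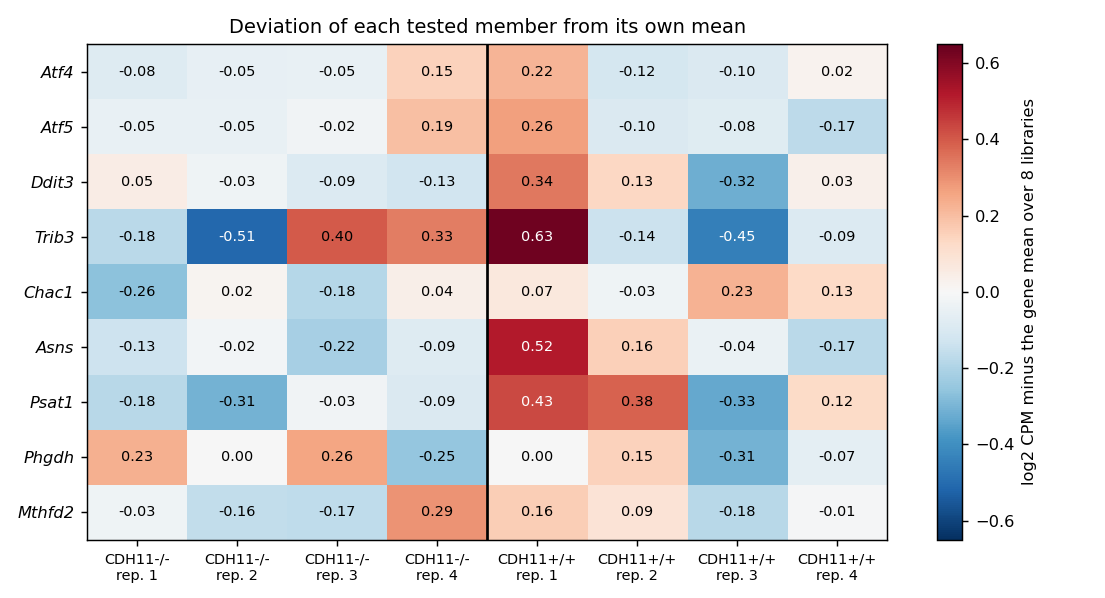
Log2 CPM of each tested member in each library minus the member's mean over the 8 libraries, CDH11-/- libraries on the left. The column of CDH11+/+ replicate 1 is above the mean for 8 of 9 genes, and that of CDH11+/+ replicate 3 for 1.

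Kidney tissue holds many cell types, and in bulk RNA fewer cells of a type and less RNA per cell cannot be told apart. The 12 proximal tubule markers, all tested, summed to 2981, 3798, 3129 and 2364 CPM in the CDH11-/- libraries and to 3167, 7025, 4704 and 5222 CPM in the CDH11+/+ libraries. All 12 had negative differences (median -0.78) and none was called. The unadjusted edgeR p was under 0.05 for 11 of them, a level passed by 14.1% of all genes. Slc34a1, Slc5a2, Slc5a12, Slc22a6, Slc22a8 and Slc13a3 did not overlap between labels, and the other markers did. Slc13a3 had the lowest adjusted p (log2 fold change -1.51, edgeR adjusted p = 0.0528). The 8 macrophage markers summed to 4349, 3955, 4110 and 5060 CPM under CDH11-/- and to 4925, 3467, 3442 and 3775 CPM under CDH11+/+, with 8 of 8 differences positive and none called. The pair of libraries with the most Atf4 and Atf5, CDH11-/- replicate 4 and CDH11+/+ replicate 1, thus had the highest macrophage sums of the 8. The same pair had the lowest sums of thick ascending limb markers (1715 CPM in CDH11-/- replicate 4 and 1796 CPM in CDH11+/+ replicate 1). Its sums of distal convoluted tubule markers were also the lowest (789 and 823 CPM). The part of any of these cell types in the members' levels was not tested. Of the 14 marker lists, 3 separated the labels by their summed level. Injured tubule markers summed to 13645 to 14611 CPM under CDH11-/- and 14960 to 16795 CPM under CDH11+/+. Most of that sum was Spp1 (means of 10812 CPM under CDH11-/- and 12243 CPM under CDH11+/+), and of the 9 markers 4 had positive and 5 negative differences (median -0.02), with Spp1 alone not overlapping. B and plasma cell markers summed to 201.2 to 257.7 CPM under CDH11-/- and 10.1 to 104.5 CPM under CDH11+/+, and endothelial markers to 321.1 to 349.8 CPM under CDH11-/- and 221.2 to 312.3 CPM under CDH11+/+. Jchain, an immunoglobulin joining chain, made up most of the B and plasma cell sum under CDH11-/- (means of 219.5 CPM under CDH11-/- and 36.7 CPM under CDH11+/+). Fibroblast markers overlapped in sum (1114.5 to 1590.9 CPM under CDH11-/- and 962 to 1395.9 CPM under CDH11+/+). Of the 5, 4 had positive differences and 1 a negative one (median 0.42). The unadjusted edgeR p was under 0.05 for 3 of them, none was called, and Pdgfra did not overlap between labels (log2 fold change 0.49). Hepatocyte markers reached 423.3 CPM in CDH11-/- replicate 2, against 14.1 to 44.7 CPM in the other 7 libraries, and they include Alb and Apoa1. No marker gene was at 0 in all libraries, and none of the 63 tested was called.

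The rest of the pathway was followed in 10 further lists of 116 genes, from the kinases upstream of ATF4 to the tRNA synthetases and chaperones downstream. Of the 115 tested, 3 rose and 0 fell in the libraries labelled CDH11-/-, or 2.61% called beside the 0.719% of all genes. These lists were chosen with earlier results of these data known, so the higher share is a description and was not tested. The 3 were Ppp1r15a, Gdf15 and Lars, and each came from a different list.

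Ppp1r15a had the largest difference of the 115. It encodes GADD34, the stress-induced subunit that directs protein phosphatase 1 to eIF2 alpha and so ends the translational block, and it is itself a target of ATF4 and CHOP. The gene (chromosome 7, 45522916 to 45526268, minus strand) read 43.7, 37.6, 37.6 and 41.2 CPM in the libraries labelled CDH11-/-, and 18.5, 20.2, 18.6 and 27.6 CPM in those labelled CDH11+/+. The highest CDH11+/+ library lay below the lowest CDH11-/- library. Its average was 40.0 ± 2.99 CPM under CDH11-/- and 21.2 ± 4.35 CPM under CDH11+/+ (SD, n = 4 each), a 1.88-fold difference (log2 fold change 0.91 ± 0.12, edgeR adjusted p = 0.00935). The direction held under all 18 alternatives, and 3 ended the call: limma on the authors' normalized values (adjusted p = 0.0629), the authors' factors as offsets in edgeR (0.0607) and leaving out CDH11+/+ replicate 2 (0.05002). Ppp1r15a shares 12 exon bases with Tulp2 on the opposite strand. Without CDH11-/- replicate 2, the library with hepatocyte transcripts, the log2 fold change was 0.94 (edgeR adjusted p = 0.0188). The summed endothelial and B and plasma cell markers given above separated the labels in the same direction, and their part in this difference was not tested.

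Gdf15, a secreted stress cytokine that CHOP and ATF4 can induce, read 94.9, 78.0, 99.0 and 80.4 CPM under CDH11-/-, and 62.7, 67.8, 53.3 and 63.2 CPM under CDH11+/+. Every CDH11-/- library was above every CDH11+/+ library. The log2 fold change was 0.51 ± 0.10 (edgeR adjusted p = 0.0356), and 8 of the 18 alternatives ended the call without turning its direction: both fits on the authors' scale (adjusted p = 0.0605 by limma and 0.0529 with offsets) and leaving out CDH11-/- replicate 1, 3 or 4 or CDH11+/+ replicate 2, 3 or 4 (edgeR adjusted p of 0.0525 to 0.131).

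Lars, the cytosolic leucyl-tRNA synthetase, read 74.6, 73.3, 75.3 and 76.9 CPM under CDH11-/- and 57.6, 59.5, 61.2 and 62.3 CPM under CDH11+/+. The libraries of each label lay within a few CPM of each other. The rise was 1.25-fold (log2 fold change 0.32 ± 0.05, edgeR adjusted p = 0.0275). Of the 18 alternatives 9 ended the call. Both fits on the authors' scale gave a log2 fold change of 0.21 (adjusted p = 0.408 by limma and 0.405 with offsets), and leaving out any single library other than CDH11+/+ replicate 1 gave 0.31 to 0.34 with edgeR adjusted p of 0.0546 to 0.0851. None of the other 19 cytosolic tRNA synthetases was called, and 14 of the 20 had negative differences (median -0.04). Eprs, the next of the list by p, averaged 122.8 ± 5.57 CPM under CDH11-/- and 137.9 ± 6.08 CPM under CDH11+/+, with a log2 fold change of -0.17 (edgeR adjusted p = 0.239).

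**Figure D4:**
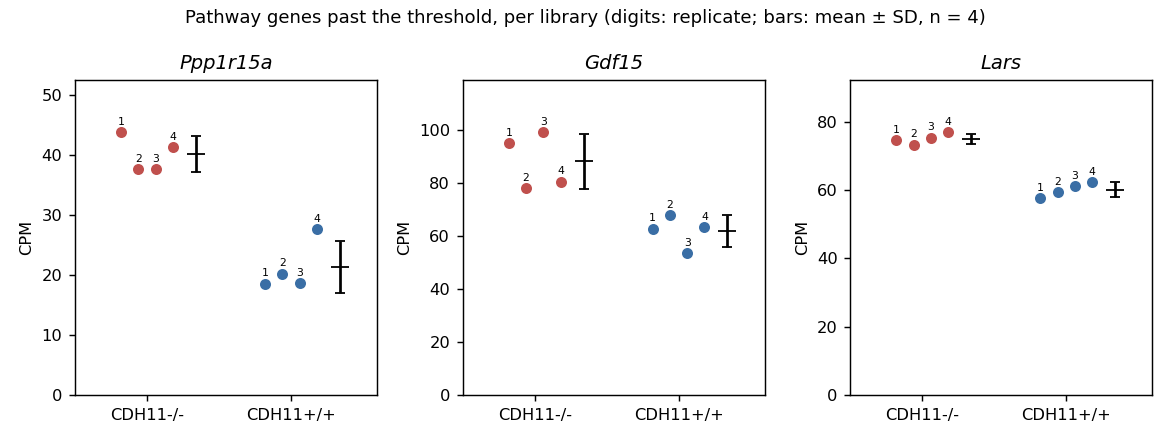
Level in CPM of Ppp1r15a, Gdf15 and Lars in each library, CDH11-/- in red on the left and CDH11+/+ in blue on the right, with digits for replicates and bars for the mean ± SD (n = 4). In each panel the lowest CDH11-/- point lies above the highest CDH11+/+ point; for Ppp1r15a these are 37.6 CPM (CDH11-/-) and 27.6 CPM (CDH11+/+).

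Upstream of ATF4, the 4 eIF2 alpha kinases did not pass the test. Eif2ak1 (HRI, the haem sensor) had a log2 fold change of -0.07, Eif2ak2 (PKR, the sensor of double-stranded RNA) of -0.10, Eif2ak3 (PERK, of the endoplasmic reticulum) of -0.01 and Eif2ak4 (GCN2, the sensor of uncharged tRNA) of -0.04, with edgeR adjusted p of 0.699, 0.506, 0.961 and 0.859. The signs of Eif2ak3 and Eif2ak4 turned under other scalings, the largest such value being 0.18. Kinase activity depends on phosphorylation, which was not measured. Of the 11 genes in the list of kinases and phosphatases, Ppp1r15a alone was called, and the median was -0.03.

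No gene of the metabolic lists was called in the edgeR fit of all 8 libraries. Among 16 serine and one-carbon enzymes and carriers, 7 differences were positive and 9 negative (median -0.22), and 2 had an unadjusted p under 0.05. Sfxn1, the mitochondrial serine transporter, averaged 90.7 ± 5.58 CPM under CDH11-/- and 114.2 ± 11.0 CPM under CDH11+/+, without overlap (log2 fold change -0.33, edgeR adjusted p = 0.0795). It passed by DESeq2 (adjusted p = 0.0152), by limma-voom (0.0216), without CDH11+/+ replicate 1 (-0.38, 0.00835) and without that library and CDH11-/- replicate 2 (-0.43, 0.0026). In the list of proline synthesis, transsulfuration and other ATF4 enzymes, 9 of 11 differences were negative (median -0.17), and the genes of smallest p were the aminotransferases Gpt2 at -0.22 and Got1 at -0.17 (edgeR adjusted p = 0.221 and 0.311). The amino acid transporters were split, with 6 positive and 5 negative of 11 and a median of 0.07. Among them Slc6a9, a glycine carrier, had a log2 fold change of -0.30 and Slc3a2, the heavy chain of several exchangers, one of -0.21 (edgeR adjusted p = 0.168 and 0.263). The proximal tubule, which makes much of the kidney's serine, had the summed markers given above, and its part in these lists was not tested.

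With all 8 libraries in the edgeR fit, the stress lists beside the amino acid branch held no call other than Gdf15. Of the 13 bZIP partners and feedback genes, 6 differences were positive and 7 negative (median -0.01). Sesn2, a sestrin that ATF4 raises to restrain mTORC1, averaged 55.8 ± 3.30 CPM under CDH11-/- and 66.8 ± 5.23 CPM under CDH11+/+, without overlap (log2 fold change -0.26, edgeR adjusted p = 0.143). In the other arms of the unfolded protein response 10 of 12 differences were negative (median -0.08), with Herpud1, of the degradation machinery of the endoplasmic reticulum, at -0.28 and the chaperone Hsp90b1 at -0.12 (edgeR adjusted p = 0.198 and 0.445). All 8 mitochondrial chaperones and proteases tested had negative differences (median -0.16), Hspd1 at -0.26 and Hspa9 at -0.23 among them (edgeR adjusted p = 0.224 and 0.244). Without CDH11+/+ replicate 1, Herpud1 (-0.33, edgeR adjusted p = 0.0352) and Hspd1 (-0.32, 0.0237) passed the threshold. Without CDH11-/- replicate 2 as well, they did so again (adjusted p = 0.00599 and 0.00892), and so did Hspa9 (-0.31, 0.0284). Of the 7 genes associated with CHOP, 5 had positive and 2 negative differences (median 0.09), with Dusp8 at 0.28 and the death receptor Tnfrsf10b at 0.21 (edgeR adjusted p = 0.361 and 0.409).

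Of the 7 genes of the FGF21 receptor and PPAR axis, 6 were tested, with 3 positive and 3 negative differences. Ppara, the fatty acid sensor that drives Fgf21 in liver, averaged 11.1 ± 2.43 CPM under CDH11-/- and 17.4 ± 1.10 CPM under CDH11+/+, without overlap (log2 fold change -0.64, edgeR adjusted p = 0.0735). It passed under 5 of the 18 alternatives, among them DESeq2 (adjusted p = 0.00882) and leaving out CDH11+/+ replicate 1 (0.0377) or CDH11-/- replicate 3 (0.0396). Fgfr1, the receptor through which FGF21 signals with a co-receptor, had a log2 fold change of 0.09 (edgeR adjusted p = 0.507).

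**Figure D5:**
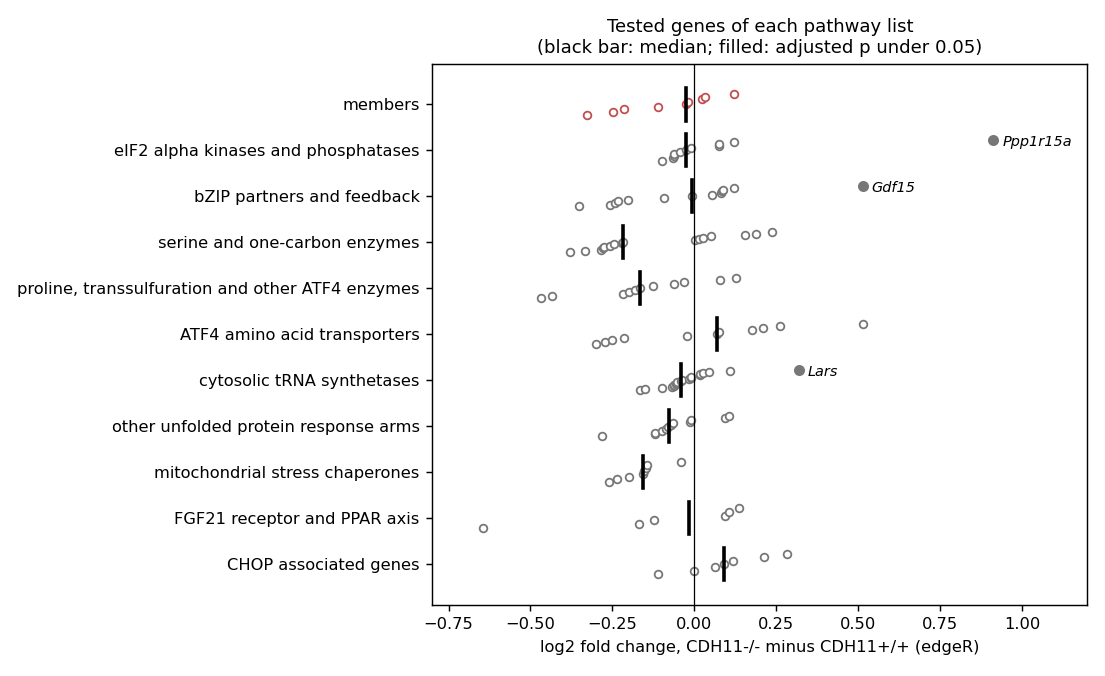
Log2 fold change of CDH11-/- over CDH11+/+ (horizontal axis) for each tested gene of the members, in red, and the 10 further lists, with the median as a black bar and genes past the adjusted threshold filled. The medians lie between -0.22 and 0.09, and the 3 filled points are Ppp1r15a, Gdf15 and Lars.

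Likeness across the 8 libraries was computed for 4 members against 14371 genes on log2 CPM, as a description over libraries that share their depth and cell makeup. Atf4 was most like Zdhhc20 (Pearson r = 0.989, Spearman rho = 0.976), Socs2 (0.985 and 0.952) and Hectd2 (0.966 and 0.929). For Asns these were Lrrn3 (r = 0.938), Nxt1 (0.922) and Rap2c (0.921). Phgdh was most like Plcl1 (r = 0.938), Gabrb1 (0.937) and Smoc1 (0.934), and Trib3 most like Msl1 (0.967), Rpl13 (0.951) and Smim15 (0.951). None of these genes is a member. With 8 libraries and this many genes, high values arise in any search of this kind.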

How the data were processed

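Kidney RNA of 8 mice was sequenced, 4 labelled CDH11-/- and 4 labelled CDH11+/+; libraries were directional, per the labels' protocols. The authors deposited whole-number counts per Ensembl gene and a signal table of normalized counts. The submitters' processing notes name mm10 as build and, without versions, DRAGEN and DESeq2 as tools; the annotation used, and whether strand entered the counting, are details that the sources used here do not give. The deposited normalized values equal each count divided by a factor specific to the gene and library, so they were used in alternatives only. Replicates were numbered in order of deposit.

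The counts were tested with the edgeR quasi-likelihood test (edgeR 4.0.16, R 4.3.3) with TMM, filterByExpr, robust moderation and label as the only term, which left 15852 genes. The Benjamini-Hochberg adjustment ran over all of them at a threshold of 0.05, and members were read from that fit. Intervals are 95%. The biological coefficient of variation was 13.5%, and libraries held 10675309 to 18539479 counts, so error at 1 CPM is mostly that of counting. Names and coordinates came from GENCODE M21 (GRCm38, the assembly mm10 names), and promoter windows from RefSeq (GRCm38.p6), where all 10 members matched. The fit was checked on simulated counts with known changes, placed in genes of ample counts and with the same dispersion for every gene. That check does not bear on scarce genes such as Trib3 and Chac1 or on small differences.

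The members and lists were chosen with earlier results of these data known. Named genes were the members, Cdh11, the 4 eIF2 alpha kinases, and from each further list every gene past the threshold and the 2 of smallest p. A gene that this rule names is not reported here. Alternatives were other scalings, filters and moderation, DESeq2 1.42.0, limma-voom and limma on log2 of the authors' values (limma 3.58.1, pseudocount 1), the authors' factors as offsets, and leaving out each library. Leaving out both CDH11+/+ replicate 1 and CDH11-/- replicate 2 was added after seeing the data.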

Additional observations from a re-analysis of the deposited data

Results flagged for a closer look

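The CPM of the named genes other than Fgf21 and the summed CPM of the members were looked at in 68 groups of 4 libraries, each label apart. Library totals were not among them. In 3 groups the gap of a library to its nearest fellow took up most of the range of the group, where chance flags about 1 in 20 groups. Atf4 in CDH11-/- replicate 4 was 158.8 CPM, against 135.1 to 138.3 CPM in the other 3 libraries of that label. Atf5 in the same library was 48.2 CPM, against 40.7 to 41.4 CPM. Eprs in CDH11+/+ replicate 2 was 146.9 CPM, against 133.8 to 135.6 CPM in its 3 fellows. Without CDH11-/- replicate 4, no member was called.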

How the results depend on the processing

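Over 18 alternatives, 0 members were called. Of 162 member values, 144 kept their direction and 18 turned it. The number of genes called over the whole table, 114 in the edgeR fit, was 208 with no filter on low counts, 515 with DESeq2, 685 with limma-voom, 49 with limma on the authors' values, 50 with the authors' factors as offsets, and 26 to 1004 when each library was left out in turn (the lowest without CDH11+/+ replicate 4, the highest without CDH11+/+ replicate 1). Without both CDH11+/+ replicate 1 and CDH11-/- replicate 2, a choice made after seeing the data, it was 1845, and the cause was not tested. With library size alone the log2 fold change of Atf4 was 0.0283, of Mthfd2 0.0234, of Eif2ak3 0.0387 and of Eif2ak4 0.0067. Without both libraries it was 0.0728 for Atf4, 0.0676 for Mthfd2, 0.4427 for Trib3 and 0.0299 for Eif2ak3. Eif2ak3 was 0.0043 with no filter, 0.0491 with limma on the authors' values and 0.0568 with their factors as offsets; Eif2ak4 was 0.16 and 0.18 in those last fits. With each library left out in turn, values ran from -0.0625 to 0.0675 for Atf4, -0.0168 to 0.1458 for Atf5, -0.2208 to 0.001 for Ddit3, -0.1188 to 0.2982 for Trib3, -0.1262 to 0.0334 for Mthfd2, -0.46 to -0.22 for Psat1, -0.34 to -0.09 for Asns, -0.26 to -0.15 for Chac1, 0.045 to 0.23 for Phgdh and -0.0459 to 0.0306 for Eif2ak3. Calls of Ppp1r15a, Gdf15 and Lars ended under 3, 8 and 9 alternatives, and Sfxn1, Ppara, Herpud1, Hspd1 and Hspa9 passed under 4, 5, 2, 2 and 1. No paired analysis was possible because replicates carry no number, litter or batch in the labels. Depth limits Trib3, Chac1 and Fgf21.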
